A study of Mus musculus with 16 samples.

Results

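The clustered protocadherins are cell-surface adhesion molecules encoded side by side in 3 gene clusters, alpha, beta and gamma, on mouse chromosome 18. They were taken by symbol from the deposited gene table, which held 56 of them among 32166 genes: 13 alpha, 22 beta and 21 gamma members. In the GRCm38 assembly (GENCODE M21) the alpha members lie between 36930184 and 37187661, the beta members between 37264938 and 37524479, and the gamma members between 37661793 and 37841873. Pcdhgc4, a further gamma gene of the annotation, was not analysed here.

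The libraries came from retinal organoids, three-dimensional cultures in which pluripotent stem cells form retinal tissue. All cells carried the Nrlp-GFP transgene, in which the promoter of the rod determinant Nrl drives green fluorescent protein, and GFP-positive cells were sorted before polyA RNA sequencing. Embryonic stem cell (ESC) clones came from blastocysts of the transgenic mice. Induced pluripotent stem cell (iPSC) clones came from E14.5 embryonic fibroblasts of such mice, reprogrammed with doxycycline-inducible lentiviruses for Oct3/4, Sox2, Klf4 and c-Myc. Organoids of both sources were grown in modified SFEBq culture with low oxygen at first and retinoic acid later. The 16 libraries were split as 3 ESC with 2 iPSC at day 18, 3 ESC with 1 iPSC at day 21, 1 ESC with 2 iPSC at day 25, and a single ESC with a single iPSC library at each of days 28 and 35. The labels do not say whether replicates were separate cultures, so the p-values cover only the variation among these libraries, part or all of which could be technical.

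Each alpha or gamma member has its own large variable exon and promoter, and the transcript joins that exon to constant exons shared by the whole cluster. Beta members are single-exon genes without shared constant exons. CTCF and cohesin loop a distal enhancer to the promoter that is used, so that single neurons can show different combinations of members. The proteins bind copies of themselves on other membranes, and in the retina the gamma cluster is known for self-avoidance of starburst amacrine dendrites and for interneuron survival. The C-type members at the ends of the alpha and gamma clusters are known for broader, less variable use than the rest.

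The shared exons limit how well a member can be measured. Of the 31-base windows in the transcripts of a member, a median of 88.2% occurred in no other gene for the beta members (33.1 to 100%), against 34.8% for alpha (0.49 to 51.6%) and 44.5% for gamma (0.62 to 76.2%). Pcdha4, Pcdha11 and Pcdhga10 had the smallest unique shares, and their levels rest mostly on how the quantifier divided shared reads. Pcdhgc3, which also shared windows with the non-member gene BC037039, had 23.2%. Beta levels are therefore the most directly measured, apart from Pcdhb12, which had the 33.1%. Alpha and gamma levels are uncertain where reads could be split between members or with genes outside the family.

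Several libraries stood apart. Levels are given as CPM (read counts scaled per library). Nrl did not exceed 17.7 in day 18 ESC replicate 1 and iPSC replicate 1, and was between 136 and 1921 in the other libraries. The same libraries had the highest sums of 8 progenitor markers, 2621 and 2730 CPM, against 44.1 to 1310 elsewhere. The ESC day 35 library had the highest sums of 5 pigment epithelium markers (2135 CPM), 6 Müller glia markers (1292 CPM) and 7 bipolar markers (396 CPM), against 97.3, 135 and 90.6 in the iPSC day 35 library. ESC day 18 replicate 2 came next for pigment epithelium, at 1566 CPM, and the remaining libraries were between 7.41 and 281. Y-linked genes of day 18 ESC replicate 1 and iPSC replicate 2 went against their labelled source in earlier results of these data, and without this pair the number of called members was the same in each comparison below. Chat, the defining starburst amacrine marker, did not exceed 0.28 CPM in any library. Library totals ran from 3866873 to 21910465 estimated counts, and 1 count was worth 0.213 CPM in the smallest library and 0.037 in the largest. Summed over all genes, CPM ran from 642418 in ESC day 18 replicate 2 to 885155 in ESC day 21 replicate 3. The libraries were therefore not scaled to the same sum.

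Almost the whole family was detected in the sorted cells. Between 47 and 54 of the 56 members (median 51) reached 1 CPM in a library, and between 19 and 43 reached 5 CPM. Pcdhb1 did not exceed 0.16 CPM and was left out of the tests, which leaves 55 members that had at least 1 CPM in at least 2 libraries. Summed over members, the alpha cluster had a median of 38.4 CPM (16.7 to 74.4), the beta cluster 201 CPM (131 to 292) and the gamma cluster 199.6 CPM (137 to 333). Alpha held 8.54%, beta 44.6% and gamma 46.9% of the summed level on average over libraries. In a bulk sample, fewer cells using a member and less RNA per cell cannot be told apart.

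Levels of different genes were compared per kilobase of transcript. The highest mean over libraries was that of the C-type member Pcdhgc3, at 11.2 CPM per kb, with only 23.2% of its windows unique. Pcdhga8 followed at 7.06, then Pcdhb17 at 6.29, Pcdhb20 at 5.09 and Pcdhga2 at 4.11 CPM per kb. No alpha member was among the first 19, and Pcdhac2 led that cluster in the next place. Position along the beta cluster went with level: Pcdhb1 to Pcdhb10 ranged from 0.012 to 1.63 CPM per kb, and Pcdhb11 to Pcdhb22 from 0.97 to 6.29.

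**Figure D1:**
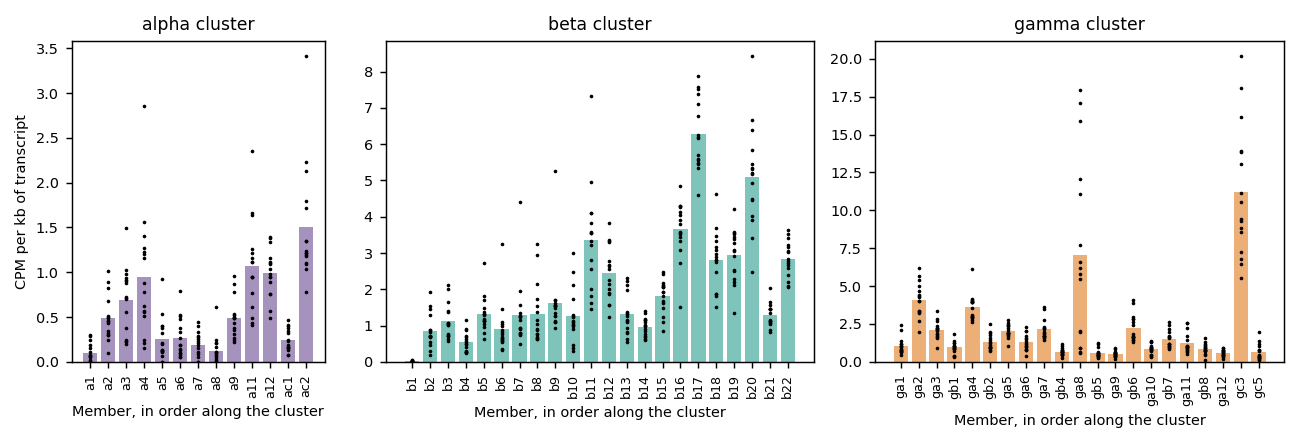
Mean CPM per kb of transcript (bars) and the value of each of the 16 libraries (dots) for every member, in order along the alpha, beta and gamma clusters, each panel with its own vertical scale. Pcdhgc3, Pcdhga8 and Pcdhb17 have the tallest bars, and the beta members from Pcdhb11 on are mostly above those before them.

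The ranking of members was much the same in every library. Spearman's rho of the 56 levels between 2 libraries had a median of 0.85 over 120 pairs, from 0.71 for ESC day 21 replicate 1 with ESC day 28 to 0.96 for ESC and iPSC day 18 replicate 1. These values share the genes, their lengths and the quantification, and describe the libraries only. The SD of log2(CPM + 1) over the 16 libraries had a median of 0.47 for the 55 tested members, beside 0.45 for all 15202 genes tested. It was above 1 for 11.2% of all genes and for 1 member, Pcdhga8, at 1.61.

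**Figure D2:**
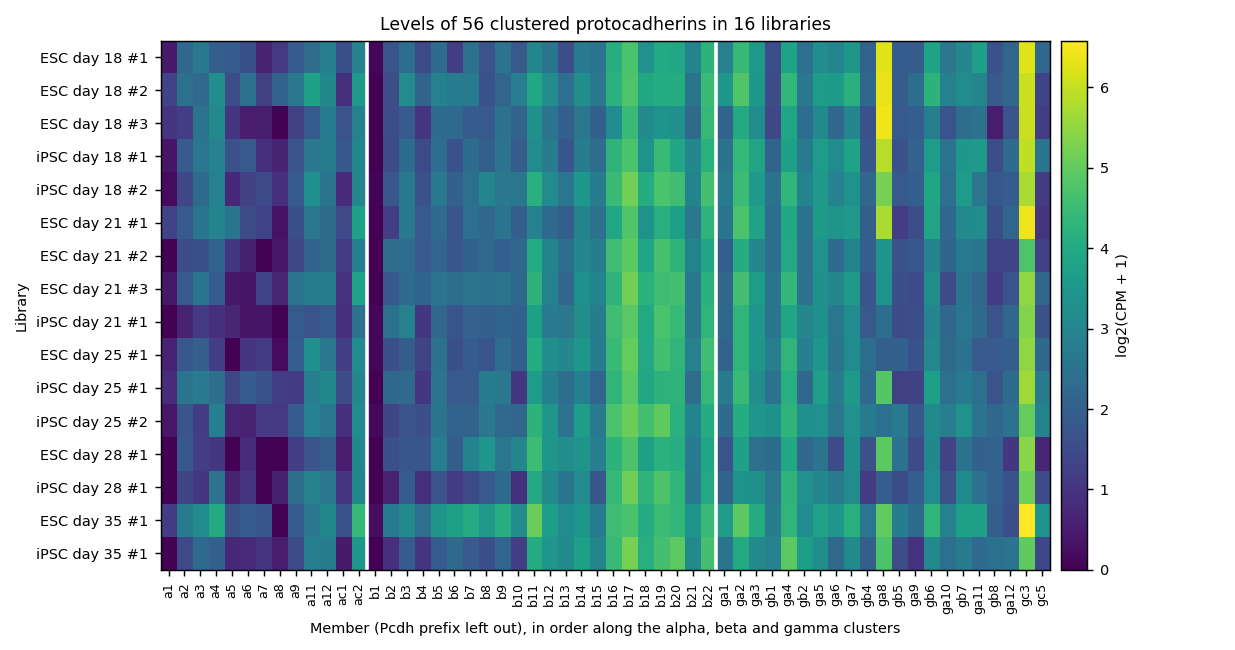
Level of each member (columns, in cluster order) in each library (rows, by day and source) as log2(CPM + 1), with the colour scale at the right. The bright Pcdhgc3 column and the band from Pcdhb16 to Pcdhb20 run through all libraries, while Pcdhga8 is brightest at day 18.

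The C-type members differed widely in level. Pcdhgc3 had 75.8, 64.8 and 65.4 CPM in the ESC day 18 libraries and 61.1 and 52.3 CPM in the iPSC ones. At day 21 it had 84.7, 26.0 and 44.2 CPM in ESC and 40.1 in iPSC libraries, and at day 25 it had 43.6 in the ESC and 49.3 and 31.8 in the iPSC libraries. It had 41.5 CPM in ESC and 34.0 in iPSC at day 28, and 94.6 in ESC and 30.2 in iPSC at day 35. All day 18 values were above 50 CPM, as were only ESC day 21 replicate 1 and ESC day 35 among later libraries. The change from day 18 to day 35 was -0.20 (SE 0.38, adjusted p = 0.787 in limma) and turned to 0.48 when the iPSC day 35 library was left out.

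Pcdhac2, the last alpha member, was the leading alpha member in 11 of 16 libraries. Its levels were 6.44 to 7.13 CPM in 4 day 18 libraries and 10.5 in ESC replicate 2. Day 21 gave 12.5, 6.12 and 13.2 CPM in ESC and 4.62 in iPSC libraries. Days 25 and 28 stayed between 6.97 and 7.97 CPM, and day 35 gave 20.1 in ESC and 10.1 in iPSC. The day 35 libraries were higher than the mean of day 18 by 0.90 (SE 0.35, adjusted p = 0.124), which did not pass the test. Pcdhac1 was low, at 0.40 to 2.51 CPM. Pcdhgc5 ranged from 0.63 CPM in ESC day 28 to 9.44 in ESC day 35.

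Pcdhga8 set the day 18 libraries apart from most later ones. Its level was 75.2, 80.9 and 84.8 CPM in the ESC and 57.1 and 36.5 CPM in the iPSC day 18 libraries. At day 21 it was 52.5, 9.69 and 9.18 CPM in ESC and 4.24 in iPSC. Day 25 gave 2.98 CPM in ESC and 27.6 and 4.28 in iPSC, day 28 gave 29.3 in ESC and 2.91 in iPSC, and day 35 gave 31.1 and 26.0. Of the 11 later libraries, ESC day 21 replicate 1 alone overlapped the day 18 range, and the later values fell into a group of 2.91 to 9.69 and one of 26.0 to 52.5 CPM.

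On the log2(CPM + 1) scale the differences of Pcdhga8 from day 18 were -2.42 (SE 0.70) at day 21, -2.74 (SE 0.77) at day 25, -2.50 (SE 0.87) at day 28 and -1.07 (SE 0.87) at day 35. The limma adjusted p-values over all genes were 0.217, 0.092, 0.142 and 0.476, so none passed 0.05. These contrasts share the 5 day 18 libraries and are not independent. Progenitor markers moved with the same days: their sum was 186 to 2730 CPM at day 18, 756 in ESC day 21 replicate 1 and 44.1 to 488 in the other later libraries. ESC day 18 replicate 2, with 186 CPM of progenitor markers, had 80.9 CPM of Pcdhga8. Other markers differed too. The sum of 8 ganglion markers was 261 CPM in ESC day 21 replicate 1, 100 in iPSC day 25 replicate 1 and 90.5 in ESC day 35. It was only 15.3 in ESC day 28 and 6.89 in iPSC day 35, and 4.85 to 26.8 in the other later libraries. The sum of 5 forebrain markers was 96.5, 44.6, 43.5, 12.8 and 5.78 CPM in the libraries named, in that order, and 8.80 to 18.5 in those others. At day 18 the ganglion sum was 33.1 (ESC replicate 2) to 242 CPM, and the forebrain sum 16.2 (iPSC replicate 2) to 202 CPM. The part of these cell types in this result was not tested.

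Because Pcdhgc3 and Pcdhga8 together held 19.9 to 61.6% of the gamma sum, that sum followed them. It was 289, 316 and 244 CPM in ESC and 265 and 234 in iPSC libraries at day 18. The later libraries lay between 137 and 210 CPM, apart from ESC day 21 replicate 1 at 280 and ESC day 35 at 333. Without those members the gamma sums were 93.6 to 171 CPM at day 18 and 86.2 to 207 later, and overlapped throughout. Deposited CPM summed over all genes to 642418 in ESC day 18 replicate 2 and 720169 in ESC day 35. After rescaling CPM to the same sum in each library, the gamma sums of these 2 libraries were 378 and 355, and their alpha sums 78.1 and 79.2.

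**Figure D3:**
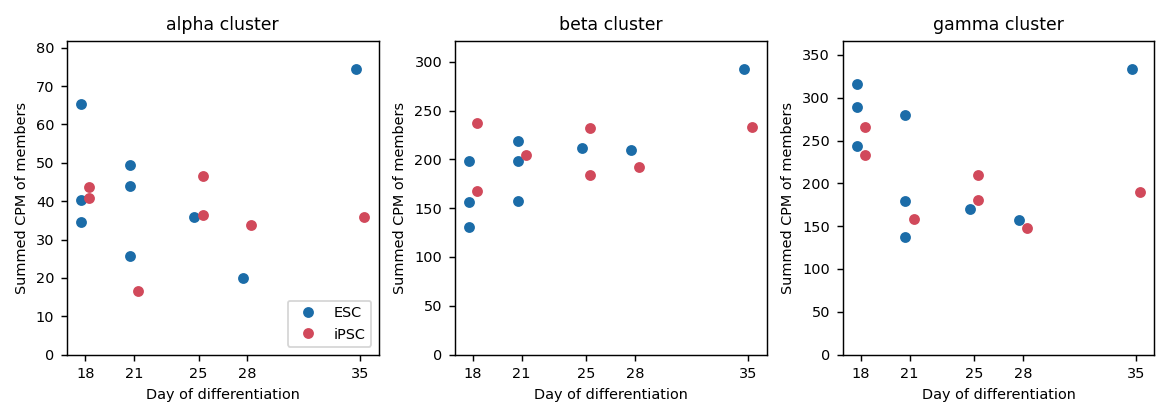
Summed CPM of the members of each cluster in each library against day, with ESC libraries in blue and iPSC libraries in red, each panel with its own vertical scale. In CPM as deposited the ESC day 35 library is the highest in all 3 panels (74.4, 292 and 333 CPM), and the gamma sums of day 18 lie above most later ones. After rescaling to the same CPM sum (not shown), ESC day 18 replicate 2 is above it for gamma, at 378 against 355.

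Pcdhb17 and Pcdhb22 varied least among the tested beta members. Pcdhb17 ranged from 21.4 CPM in ESC day 18 replicate 3 to 36.7 in iPSC day 35, with a median of 28.8 and an SD of 0.22 on the log2 scale. It was the leading beta member in 15 of 16 libraries, with Pcdhb11 ahead in ESC day 35. Pcdhb19 ranged from 9.68 to 30.2 CPM, Pcdhb16 from 7.97 to 25.3 and Pcdhb22 from 13.7 to 24.0. ESC day 18 replicate 3 had the lowest level of Pcdhb16 to Pcdhb21 alike. The highest gamma member after Pcdhgc3 and Pcdhga8, Pcdhga2, ranged from 9.18 CPM in iPSC day 28 to 29.1 in ESC day 35. Pcdhga4 ranged from 12.4 to 19.5 CPM in 15 libraries and reached 29.1 in iPSC day 35.

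Across the days of culture 1 member rose, Pcdhb13. Its levels at day 18 were 1.99, 4.24 and 3.07 CPM in ESC and 2.38 and 5.03 CPM in iPSC libraries. They were 2.97, 4.07 and 3.47 CPM in ESC and 5.14 in iPSC at day 21, and 7.31 in ESC and 4.17 and 4.66 in iPSC at day 25. Day 28 gave 8.53 CPM in ESC and 4.92 in iPSC, and day 35 gave 8.27 and 7.89. Both day 35 libraries were above every day 18 and day 21 library. The slope was 0.07 per day on the log2(CPM + 1) scale (SE 0.018, adjusted p = 0.018 in limma). It did not pass without iPSC day 35 (adjusted p = 0.060), without the low-Nrl day 18 pair (0.082) or without days 28 and 35 (0.225), and its direction held in each. The number of members with a called slope was 4 in DESeq2 and 4 without ESC day 18 replicate 2, Pcdhb13 among them both times. The shares of all genes in these 2 settings are not given here.

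That was 1 of 55 members with a slope, beside 12.1% of all genes tested in either direction and 6.81% with a positive slope. At an unadjusted p under 0.05, 9 members (16.4%) had a positive slope, beside 15.1% of all genes, and 0 a negative one, beside 13.7%. The 9 were Pcdhac2, Pcdhb11 to Pcdhb14, Pcdhga4, Pcdhgb1, Pcdhgb2 and Pcdhgb8. Pcdhb11 (0.06 per day, adjusted p = 0.056) and Pcdhb12 (0.05, adjusted p = 0.065) are the neighbours of Pcdhb13 and were named after their values were seen. Both shared windows with Gm37446, a gene outside the family, and only 33.1% of those of Pcdhb12 were unique. Pcdhgb1 had 1.62 to 4.59 CPM at day 18 and 4.04 to 8.82 at later days (0.05 per day, adjusted p = 0.075). All 12 members from Pcdhb11 to Pcdhb22 had slopes above 0, beside 51.5% of all genes, with a median of 0.03 per day beside 0.00 for all genes. These members were measured in the same libraries and are not independent. ESC day 18 replicate 3, for 1, was lowest for Pcdhb16 to Pcdhb21. This split of the beta cluster was chosen after its values were seen.

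**Figure D4:**
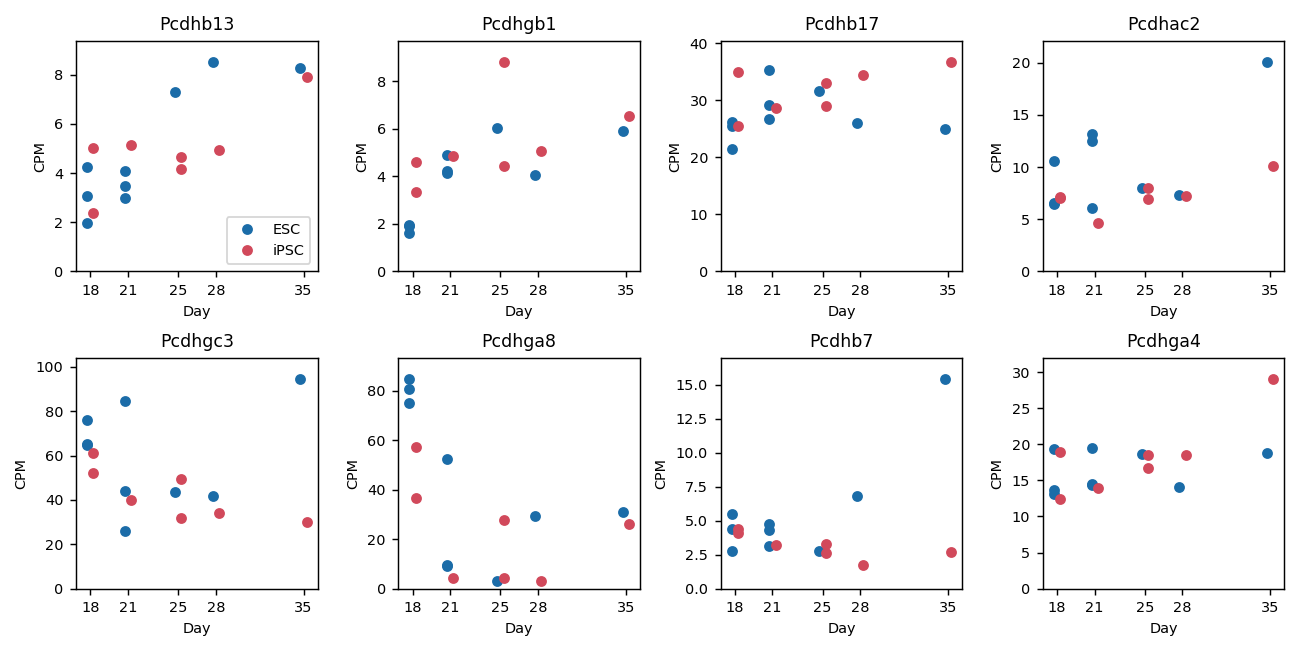
CPM of 8 members in each library against day, with ESC libraries in blue and iPSC libraries in red. Pcdhb13 reaches 8.27 and 7.89 CPM at day 35, Pcdhga8 is above 36 CPM in all day 18 libraries, and Pcdhb7 and Pcdhac2 are highest in ESC day 35.

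Single days were compared with day 18 in limma first, with the other tools beside it. The shares of all genes are those of limma, and shares for edgeR and DESeq2 are not given here. At day 21, 0 of 55 passed in limma, as did 0.0% of all genes. At day 25, 0 of 55 passed beside 0.0395% of all genes. For both days edgeR's quasi-likelihood test and DESeq2 called 0 of the 39 members they could test, and at an unadjusted p under 0.05 limma gave 1 member higher (Pcdhgb1) and 1 lower (Pcdhga8). The shares of all genes past that limit were 10.2% higher and 8.54% lower at day 21, and 13.4% and 10.9% at day 25. Of the 55 members, 17 (30.9%) had a positive difference at day 21 (median -0.14), beside 51.9% of all genes. At day 25, 29 members (52.7%) did (median 0.04), beside 49.9% of all genes.

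At day 28, 0 of 55 members passed in limma beside 0.579% of all genes, 0 of 39 in edgeR and 1 of 39 in DESeq2, which was Pcdhga2. At an unadjusted p under 0.05, 1 member was higher than at day 18, beside 11.2% of all genes, and 8 were lower, beside 10.8% of all genes. The 8 were Pcdha3, Pcdha7, Pcdhb22, Pcdhga2, Pcdhga5, Pcdhga8, Pcdhga10 and Pcdhga12. Pcdhga2 had 12.5 and 9.18 CPM at day 28 and 15.3 to 26.6 at day 18, a difference of -0.85 (SE 0.28, adjusted p = 0.130). The median difference was -0.59 for alpha, 0.01 for beta and -0.59 for gamma members, beside -0.03 for all genes.

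At day 35, 0 of 55 members passed in limma beside 7.53% of all genes. Of 39 members, edgeR called 0 and DESeq2 called 2, Pcdhb13 and Pcdhga4. At an unadjusted p under 0.05, 9 members (16.4%) were higher, beside 13.8% of all genes, and 0 were lower, beside 11.5%. The median was 0.20 over members and 0.05 over all genes. All 21 tested beta members had positive differences, beside 53.1% of all genes. Without the ESC day 35 library the median over members was -0.24, and 13 of the 21 were positive: 1 of 9 from Pcdhb2 to Pcdhb10 and all 12 from Pcdhb11 to Pcdhb22. In iPSC day 35, 8 of those 9, all but Pcdhb6, were below both iPSC day 18 libraries, with Pcdhb10 at 1.32 CPM against 2.79 and 4.95. This was not particular to them: 29 of the 55 members were so, with 8 of 13 alpha and 13 of 21 gamma members. Of the 12 from Pcdhb11 to Pcdhb22, 0 were. The share over all genes was not computed, so these counts describe the members only and have no background. The nearest to the threshold were Pcdhgb1 at 1.00 (SE 0.30, adjusted p = 0.060) and Pcdhb13 at 1.12 (SE 0.35, adjusted p = 0.065). With 2 libraries of day 35, the 95% confidence interval of a member reached a median of 0.81 to either side of its difference.

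The day 35 values of the sources differed along the clusters. With 1 library of each source there is no test. Members are given by a difference of at least 1 on the log2(CPM + 1) scale, called 2-fold here. For low members this asks for more than a 2-fold ratio of CPM. By this measure 25 of 55 members (45.5%) were higher in ESC, beside 19.8% of all genes, and 0 were higher in iPSC, beside 10.5% of all genes. All 9 tested members from Pcdhb2 to Pcdhb10 were among them, by 1.22 to 2.15, and of the 12 from Pcdhb11 to Pcdhb22 only Pcdhb11. Pcdhb7 had 15.4 CPM in the ESC and 2.70 in the iPSC library, and Pcdhb10 had 8.58 and 1.32. Pcdhb17, in the later part of the cluster, had 25.0 and 36.7.

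Summed over Pcdhb1 to Pcdhb10, the level was 90.1 CPM in ESC day 35, 20.6 in iPSC day 35 and 25.2 to 44.3 in the other libraries apart from iPSC day 28 at 16.7. The sum over Pcdhb11 to Pcdhb22 was 202 and 213 CPM at day 35. The day 28 pair had 44.3 in ESC and 16.7 in iPSC for the first sum, and 166 and 175 for the second. The iPSC day 28 library was the shallowest, with 1 count worth 0.213 CPM. The day 28 ESC and iPSC libraries also differed in rod (7293 against 15174 CPM), progenitor (487 against 74.0) and Müller glia (692 against 369) marker sums. Pigment epithelium markers (62.5 against 281) were higher in iPSC, unlike at day 35. The part of cell types was not tested. At day 28 Pcdhb5, Pcdhb7, Pcdhb8 and Pcdhb10 were at least 2-fold higher in ESC on the log2(CPM + 1) scale. Over all members 6 of 55 (10.9%) were so, beside 9.45% of all genes, and 5 were higher in iPSC (9.09%), beside 4.94%. Days 18 to 25 showed no such gap, with first sums of 25.2 to 42.1 in ESC and 28.5 to 40.0 in iPSC.

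The gamma and alpha members shared in the day 35 gap, with 10 of 21 and 5 of 13 at least 2-fold higher in ESC. Pcdhgc5 had 9.44 CPM in ESC and 1.68 in iPSC, and Pcdha4 had 15.3 and 3.04. The members that were higher in iPSC at day 35 were so by less than 1 on the log2(CPM + 1) scale. Pcdhga4 had 29.1 CPM in iPSC against 18.8 in ESC. Without the added 1, Pcdhga12 was more than 2-fold higher in iPSC, with 4.67 against 2.00 CPM. After rescaling CPM to the same sum in each library, which moved the median of all genes from -0.06 to 0.18, the number 2-fold higher in ESC was 30, beside 23.0% of all genes, and 0 were higher in iPSC, beside 5.8%. All of these values rest on 1 ESC and 1 iPSC library. The ESC day 35 library also had the highest pigment epithelium, Müller glia and bipolar marker sums. All 7 bipolar markers were at or above 1 CPM in that library and in no other. The ESC and iPSC day 35 libraries also differed in the sums of 9 rod markers (5755 against 15734 CPM), 8 progenitor markers (341 against 44.1), 8 ganglion markers (90.5 against 6.89), 10 amacrine markers (417 against 171) and 5 forebrain markers (43.5 against 5.78). Nrl had 556 CPM in the ESC and 1860 in the iPSC library. The part of these cell types in the difference was not tested.

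The slope with day was compared between the sources in a further test chosen after the values were seen. In limma 0 of 55 members passed, as did 0.0% of all genes. At an unadjusted p under 0.05 the slope was lower in iPSC for 6 members, Pcdhb2, Pcdhb5 and Pcdhb7 to Pcdhb10, or 10.9% of members against 8.11% of all genes in either direction. The smallest adjusted p was 0.443. Leaving out ESC day 35 kept 1 of these, Pcdhb8, and the median over members went from -0.03 to 0.02 per day.

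**Figure D5:**
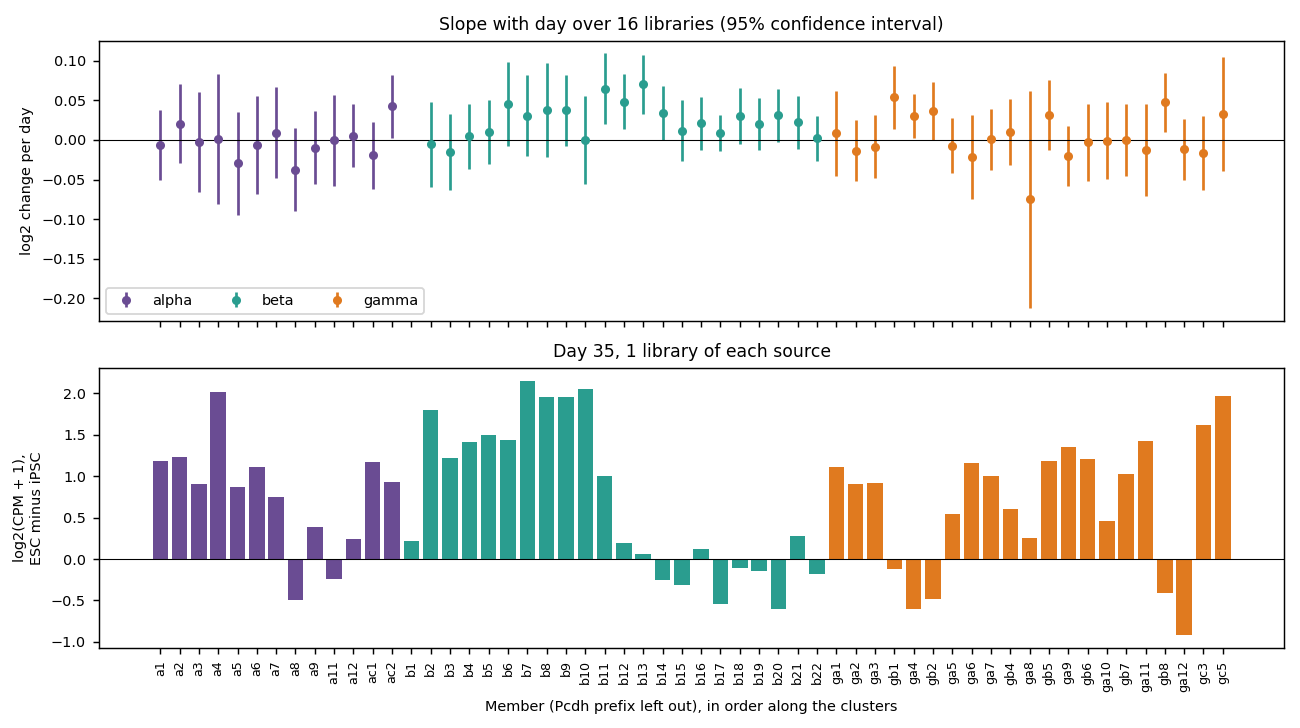
Upper panel: slope with day of each tested member (points) with its 95% confidence interval (bars), in log2(CPM + 1) per day over 16 libraries. Lower panel: ESC minus iPSC log2(CPM + 1) at day 35, 1 library each. The intervals of Pcdhb11 to Pcdhb13 lie above 0, and Pcdhb2 to Pcdhb10 are 1.22 to 2.15 higher in ESC in the lower panel.

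With day held fixed, no member passed the comparison of iPSC with ESC libraries. In limma 0 of 55 passed, as did 0.0% of all genes, and edgeR and DESeq2 called 0 of 39. At an unadjusted p under 0.05, 3 members were higher in iPSC (Pcdhb19, Pcdhga12 and Pcdhgb2), beside 3.31% of all genes, and 1 lower (Pcdha1), beside 2.22%. Pcdhb10 was lower in iPSC by a difference of -0.66 (95% confidence interval -1.36 to 0.03, adjusted p = 0.753). The interval of a member reached a median of 0.51 to either side.

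The genes known to act on the clusters were described from a fixed list. It held 20 factors of promoter choice and chromatin, among them Ctcf, cohesin subunits and their loaders, DNA methyltransferases, Smchd1 and Setdb1. Of these, 0 passed in any of the 6 limma contrasts. At an unadjusted p under 0.05 in limma there were 3 at day 35, beside 25.3% of all genes. In the source contrast 4 were higher in iPSC, beside 3.31% of all genes, and 0 lower, beside 2.22%. The median source difference was 0.23 for the list and 0.02 for all genes. The factors of highest level were Trim28, a corepressor that works with Setdb1, at a mean of 275 CPM (151 to 387), and the cohesin subunit Rad21 at 217 CPM (168 to 297). Ctcf itself had 122 CPM (78.0 to 158). Of 13 genes beside or between the clusters, 0 passed. Hdac3 and Ik, which neighbour the protocadherins, had means of 91.4 and 138 CPM, and the median day 35 difference of the neighbours was 0.00.

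Of 16 signalling and processing partners, Marcks, a membrane-bound regulator of actin, fell by 0.06 per day (adjusted p = 0.041, 190 to 624 CPM). The calls in this and the next lists stand beside 12.1% of all genes for the slope and 7.53% for day 35. Among 12 tested non-clustered protocadherins Pcdh15, a component of mechanosensory and photoreceptor links, rose by 3.95 at day 35 (adjusted p = 0.034, 3.11 to 481 CPM over libraries). The median of that list at day 35 was -0.63, against 0.20 for the clustered members. Of 15 classical cadherins and catenins 0 passed, and Ctnnb1 and Cdh2 had the highest means of that list, at 496 and 183 CPM. Of 15 other self-recognition molecules, Sdk2, which directs synaptic layers of the inner retina, fell by 1.61 at day 35 (adjusted p = 0.048), and its slope and that of Celsr2, a planar polarity cadherin, were -0.11 and -0.08 per day (adjusted p = 0.013 and 0.032).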

How the data were processed

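The deposited gene table is named as CPM, and its values are treated as a score: each is 1 less than the squared log2(CPM + 1), and CPM was recovered by inverting this. Of 7692 genes checked, 98.6% kept a constant ratio to the TPM deposited by the authors (tolerance 0.001 on log2). Trimmomatic 0.36 and kallisto 0.42.5 were used with build GRCm38.p4 (source: per the submitters' processing notes), and transcripts were summed per gene with tximport and converted to CPM with edgeR, per the series design text. The expected counts and TPM per transcript that the authors deposited are cut off part way through the transcripts, so gene sums could test 39 and 37 members.

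The reported test was limma 3.58.1 with trend on log2(CPM + 1), for the genes that reached 1 CPM in 2 or more libraries, with source and day as factors, or day as a number for slopes, and Benjamini-Hochberg adjustment over all genes at 0.05. It was tested on simulated data. Alternatives were edgeR 4.0.16 and DESeq2 1.42.0 (R 4.3.3) on expected counts rounded to whole numbers, TPM, other filters, a pseudocount of 0.1, rescaling, a replicate block and libraries left out. The fold scale understates changes of low genes.

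Named members were the C types, the 4 highest of each cluster, called members, the highest and lowest slope of each cluster and the 3 largest source differences. For other lists, up to 4 called genes were named, or up to 2 of the highest level. Members and lists were chosen with earlier results of these data known. Gene lengths and windows came from GENCODE M21.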

Additional observations from a re-analysis of the deposited data

Results flagged for a closer look

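Of 92 checks of 23 items for a library far from the rest of its day or source, 9 (9.78%) found one. Chance gives about 1 in 20 for independent checks. These checks share libraries, and some items were named for extreme values, so the share cannot be compared with that. ESC day 35 stood far above the other ESC libraries for Pcdhac2 (20.1 CPM against 6.12 to 13.2), Pcdhgc5 (9.44 against 0.63 to 3.66) and Pcdhb7 (15.4 against 2.74 to 6.85). ESC day 18 replicate 2, the library second in pigment epithelium markers, was highest for Pcdhac2 among day 18 libraries (10.5 CPM against 6.44 to 7.13) and for Pcdha8 among ESC libraries (3.25 against at most 1.13). ESC day 21 replicate 1 had 52.5 CPM of Pcdhga8 against 4.24 to 9.69 in the other day 21 libraries. Pcdhga4 was highest in ESC day 21 replicate 3 among day 21 libraries (19.5 CPM) and in iPSC day 35 among iPSC libraries (29.1 against 12.4 to 19.0). The alpha sum of iPSC day 21 was the lowest of the iPSC libraries, at 16.7 CPM against 33.7 to 46.5.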

How the results depend on the processing

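Called members by comparison moved as follows. The shares of all genes called in these settings are not given, so the counts have no background beside them. With 1 library left out, the counts were 0 to 2 at day 25 (2 without iPSC day 25 replicate 1, 1 without iPSC day 18 replicate 2), 0 to 2 at day 35 and 0 to 4 for the slope (4 without ESC day 18 replicate 2, 2 without ESC day 21 replicate 3 or iPSC day 18 replicate 2, 0 without iPSC day 35). At day 35, 2 were called without iPSC day 18 replicate 2, and 1 each without ESC day 18 replicate 2, iPSC day 25 replicate 1 or iPSC day 35. DESeq2 called 1 at day 28, 2 at day 35 and 4 for the slope. The stricter filter gave 2 for the slope, and leaving out the low-Nrl pair, or days 28 and 35, gave 0. Whether replicate numbers pair the libraries was not settled. Deviations of same-numbered libraries correlated at 0.00 to 0.64, and 2 of 3 ESC day 18 libraries correlated best with their own number at day 21. With the replicate number as a block the counts were 2, 2, 5 and 4 for days 25, 28, 35 and the slope, and 0 for day 21 and the source. The limma counts for days 25, 28, 35 and the slope therefore depend on whether that number is used. Day 21 and the source contrast kept 0 throughout, and the causes were not tested.

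Of 580 repeats of 23 gene results, 558 kept direction and side of the threshold, 3 lost the call, 1 gained it (Pcdhga4 at day 35 in DESeq2) and 18 reversed, none of them called. The reversed day 35 differences, with 1 library left out, ranged from -0.86 to 0.28 for Pcdhac1, -0.91 to 0.48 for Pcdhgc3, -0.50 to 1.86 for Pcdhgc5, -0.28 to 0.20 for Pcdha11, -0.95 to 1.29 for Pcdha4, -0.015 to 0.37 for Pcdhb17 and -0.36 to 0.44 for Pcdhga2. Pcdha11 was at 0.11 with the block and 0.0014 without the day 18 pair with discordant Y-linked genes, Pcdha4 at -0.017 without the low-Nrl pair and -0.028 without the Y-discordant pair, Pcdha12 at -0.016 and Pcdhga2 at -0.091 after rescaling, and Pcdhga2 at -0.028 with the block. Gene sums of TPM gave shares of 10.6% alpha, 62.2% beta and 27.2% gamma. TPM could be summed for fewer members, without Pcdhgc3 and Pcdhga8 among others, and is scaled by length, so several choices differ at once.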
